A study of Mus musculus with 24 samples.

Results

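Chemokines and chemokine receptors were described here in bone-marrow-derived dendritic cells (BMDCs), mouse marrow cells cultured in the growth factor GM-CSF until they take on dendritic features. The set was a list of 32 genes given by symbol, 21 ligands and 11 receptors, and it leaves out Ccr7 and its ligands. All 32 were found among the 55487 genes of the deposited count table. A member was reported where its mean raw count over the 24 libraries was at least 10, which held for 26 members, and 28 members passed the filter on low counts that left 14535 genes for testing. Values just inside and just outside that mean were 12.8 counts for Ccl8 and 9.96 counts for Ccr6. The 4 members not expressed at this level in any group were Cxcl9 with 0 to 8 counts per library, Ccr9 with 0 to 9, Xcr1 with 0 to 25 and Ackr3 with 0 to 6. Ccl24 and Ccr6 fell short over all libraries and reached a mean of 10 counts in at least 1 group.

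Chemokines are small secreted proteins that guide migrating leukocytes along gradients. They act on receptors with a heptahelical fold that couple to inhibitory G proteins, and CC and CXC chemokines are named for the spacing of their first cysteines. Dendritic cells and the myeloid cells that grow beside them in GM-CSF cultures both secrete chemokines and carry receptors that place them in tissue. Ccr7, whose ligands draw mature dendritic cells to lymph nodes, lies outside the list.

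The cultures came from mice of both sexes, aged 8 to 10 weeks, in which both Arpc4 alleles were floxed, and Arpc4 encodes a subunit of the Arp2/3 complex that nucleates branched actin. The WT mice (numbers 63, 65 and 66) had no CD11c-Cre transgene and the KO mice (64, 67 and 68) carried 1 copy, so that Cre was driven by the promoter of Itgax (CD11c) in cells that express it. All groups shared the floxed alleles and the GM-CSF medium. Libraries were made on days 7, 8, 9 and 10 with 3 per genotype and day, which gave 8 groups. Per the labels, cells were replated in fresh medium on days 4 and 7 and cells in suspension alone were kept, so a change from day 7 to day 8 and the replating on day 7 cannot be told apart. The same mouse numbers recur on every day, so libraries of different days are not independent animals.

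Totals ran from 19952047 to 31049798 counts per library. Arpc4 itself measured 155 to 182 CPM (counts scaled by library size with TMM factors) in KO against 188 to 199 in WT on day 7 and was lower in every KO library on each of the 4 days, with log2 differences of -0.28 to -0.18 and edgeR adjusted p from 0.177 to 0.69. The gene-level count does not separate the floxed part. Ddx3y, a Y-linked gene, was high in 1 library of each group. In WT that library was number 63 on every day, whereas in KO it was number 64 on days 7 and 9 but 68 and 67 on days 8 and 10, which goes against the KO numbers. Leaving out a KO number thus removes the library with high Ddx3y on some days and another library on the rest. A change between days in such a fit compares unlike sets of KO libraries. Itgax measured 474 to 1117 TPM (the deposited unit, scaled by gene length and by library), and Cd74 and H2-Ab1 reached 1223 and 209 TPM at the least. The dendritic cell markers Flt3 and Zbtb46 stayed at or under 3.76 and 10.2 TPM. All 10 neutrophil markers were detected and summed to 5617 to 11420 TPM in WT on day 7 and 17302 to 23770 TPM on day 10, while the 7 dendritic cell markers summed to 2211 to 2959 and 6847 to 9410 TPM. The 8 macrophage markers summed to 2518 to 2962 TPM in WT on day 7, 3232 to 3695 on day 8 and 2082 to 2331 on day 10. The part of such cells in the changes below was not tested, and in bulk RNA fewer cells of a type and less RNA per cell cannot be told apart.

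Per unit of length, 1 ligand dominated the set. Ccl6, a CC chemokine of myeloid cells that acts on Ccr1, averaged 13702 TPM over all libraries and made up 58.4% to 79.3% of the summed TPM of the 32 members. Its share was 58.4% to 61.7% in WT on day 7 and 77.8% to 79.3% on day 10, and in KO on day 10 it was 67.2% to 73.8%. Next came Ccl9 with a mean of 1352 TPM, Ccl2 with 1026 and Pf4 with 1020. Ccr1, at 529 TPM, stood highest among the receptors, ahead of Cxcr4 at 142 and Ccr2 at 122 TPM. The lowest reported members were Cx3cr1 at 1.47 TPM and Ccl25 at 2.01 TPM. The order moved with the day. In WT on day 7 the mean TPM ran Ccl6, Pf4, Ccl9, Ccr1 and Ccl3, each apart from the next with no overlap, and on day 10 it ran Ccl6, Ccl9, Ccl17 and Pf4. Of the 25 pairs of neighbours in each order, 14 did not overlap in WT on day 7 and 10 on day 10, against 7 and 4 in KO, so most neighbours in the KO order did not differ beyond their spread.

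From day 7 to day 8 the set split into ligands that rose and a group of receptors and ligands that fell. In WT 19 of the 28 tested members changed, 11 upward and 8 downward (edgeR, adjusted p under 0.05). That is 67.9% of the members, where 43.4% of all genes tested changed, 21.5% upward and 22% downward. In KO 19 members changed as well, 11 upward and 8 downward, against 42% of all genes, 21.1% upward and 20.9% downward. The calls shared by both genotypes numbered 18, which is 94.7% of each list, all in the same direction. Over all genes the shared calls were 76.7% of the WT list and 79.3% of the KO list, 99.9% of them in the same direction. Ccl24 passed in WT alone and Cxcl2 in KO alone. The median absolute log2 change of the tested members was 1.48 in WT and 1.09 in KO, and that of all genes was 0.345 and 0.338. Libraries of the 2 days did not overlap with day 8 higher for 14 tested members in WT and 11 in KO, where 29.8% and 23% of all genes did so, and with day 8 lower for 8 and 7, against 30% and 23.6%. Tested on log2(TPM + 1) the split was 13 upward of 19 in WT and 13 upward of 18 in KO, where 46.8% and 46% of all genes passed on that scale, 35% and 34.8% upward.

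The later days brought falls. Between days 8 and 9 in WT 3 members passed, Cxcl2, Cxcl10 and Ppbp, all downward, where 5.4% of all genes passed and 2.34% passed downward. Between days 9 and 10 in WT 9 members passed, 8 downward and Ccrl2 upward, where 3.6% of all genes passed, 2.42% downward and 1.18% upward. Both counts rest on every WT mouse. Without mouse 63, 65 or 66 the count from day 8 to day 9 was 0, and that from day 9 to day 10 was 0, 1 and 2. The calls over all genes fell as well, to 0.31%, 0.261% and 0.117% from day 8 to day 9. From day 9 to day 10 they fell to 0%, 0.2% and 1.31%, so the loss was not particular to the members. KO libraries showed 0 calls from day 8 to day 9 with edgeR, where 2.33% of all genes were called (1.31% upward and 1.02% downward), although 5 members were under an unadjusted p of 0.05 (17.9%, where 18.7% of all genes were) and the DESeq2 Wald test called 4 members and 6.18% of all genes. With limma voom and the mouse number as a replicate block, 3 members (Cxcl3, Cxcl10 and Ppbp) passed downward there (adjusted p 0.0362, 0.0437 and 0.0483), and limma voom without the mouse number gave the same calls (0.0369, 0.0446 and 0.0495), as it did for each block value given below. Libraries of these 2 days did not overlap with day 9 lower for 2 members in KO, against 8.26% of all genes. From day 9 to day 10 in KO Cxcl2 passed, downward, where 0.0619% of all genes did. Over the whole span from day 7 to day 10, WT had 20 calls, 8 upward and 12 downward, against 37% of all genes, 18.9% upward and 18.1% downward. KO had 15, of which 5 were upward and 10 downward, against 36.8% of all genes, 19.7% upward and 17.1% downward, and on log2(TPM + 1) 8 of 17 were upward, where 51.6% of all genes passed on that scale, 44.3% upward. The 14 shared calls, 70% of the WT list and 93.3% of the KO list, all had the same direction. Over all genes the shares were 73.3% and 73.6%, with 99.9% in the same direction.

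**Figure D1:**
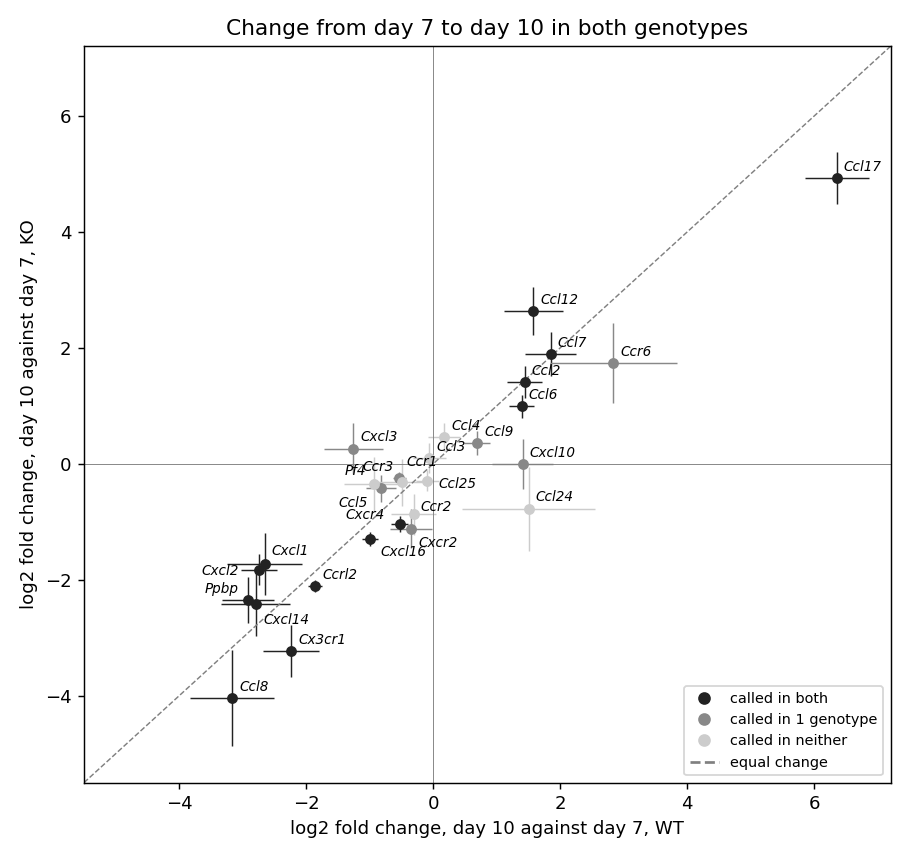
Log2 fold change from day 7 to day 10 in WT (x axis) and KO (y axis) for the 28 tested members; bars are standard errors, darker points passed in both genotypes or in 1, and the dashed line marks equal change. Ccl17 stands at the top right with 6.35 in WT and 4.93 in KO, and the lowest points are Ccl8, Cx3cr1, Ppbp and Cxcl14, below 0 in both.

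The Ccr2 ligands Ccl2, Ccl7 and Ccl12, which call monocytes out of marrow and blood, surged on day 8. Ccl2, the chief monocyte attractant, measured 66.4, 52.3 and 46.8 CPM in WT on day 7 (mice in label order here and below), 722, 622 and 604 on day 8, 451, 502 and 417 on day 9, and 127, 184 and 137 on day 10. Its KO libraries measured 121, 123 and 104 CPM on day 7, 588, 599.9 and 737 on day 8, 724, 458 and 438 on day 9, and 247, 508 and 175 on day 10. Ccl2 thus stood lowest on day 7 in both genotypes, and the day 7 and day 8 ranges were far apart. The WT rise was 11.8-fold (log2 3.56 ± 0.30 SE, edgeR adjusted p 1.49e-08) and the KO rise 5.52-fold (2.46 ± 0.28, edgeR adjusted p 8.27e-07). By day 10 Ccl2 had fallen 3.05-fold from day 9 in WT (edgeR adjusted p 0.0045) and was still 2.71-fold above day 7 (0.000377).

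Ccl7, a monocyte attractant encoded beside Ccl2, moved from 12.5, 11.3 and 11.1 CPM in WT on day 7 to 268, 238 and 213 on day 8 and back to 35.3, 52.1 and 38.4 on day 10. Its KO libraries read 36, 34.5 and 29.4 CPM on day 7, 213, 197 and 329 on day 8, 372, 190.2 and 181 on day 9, and 87.2, 233 and 52 on day 10. The day 7 values lay below all later ones in both genotypes, and the rise to day 8 was 20.6-fold in WT (edgeR adjusted p 1.13e-07) and 7.4-fold in KO (6.61e-06). Ccl12, a further Ccr2 ligand, went from 1.04, 0.421 and 0.642 CPM in WT on day 7 to 14.8, 16.6 and 12.8 on day 8 and 2.53, 2.16 and 1.73 on day 10. KO values of Ccl12 were 1.2, 1.03 and 1.11 CPM on day 7, 16.5, 12.2 and 22.7 on day 8 and 4.5, 12.4 and 4.01 on day 10. These groups did not overlap between days 7 and 8, and the rise was 20.6-fold in WT (edgeR adjusted p 1.62e-07) and 15.3-fold in KO (2.92e-07). From day 9 to day 10 Ccl7 fell 3.96-fold in WT (edgeR adjusted p 0.00717) and Ccl12 fell 3.09-fold (0.0236), the latter reaching 0.08 with limma voom and the replicate block.

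Ccl8, which binds Ccr2 among other receptors, ran against its neighbours. WT libraries held 46, 39 and 47 counts of Ccl8 on day 7 and 5, 5 and 7 on day 10, and KO libraries held 8, 11 and 46 on day 7 and 2, 2 and 1 on day 10. The gene was thus highest on day 7 in every WT library, and in KO the library labelled 68 alone reached that level. Ccl8 fell from day 7 to day 8 in WT (log2 -2.17 ± 0.60, edgeR adjusted p 0.00632) and in KO (-1.95 ± 0.68, 0.0262). Without mouse 65 the WT change was -3.06. The KO change was -2.69 without number 64 and -0.48 without number 68. Without mouse 63 or 66 the WT adjusted p was 0.0685 and 0.0759, without the KO number 68 the KO value was 0.594, and with limma voom and the replicate block that KO value was 0.0787. At 1 to 2 counts the KO level on day 10 is at the limit of counting. From day 7 to day 10 Ccl8 fell in WT (log2 -3.16 ± 0.66, edgeR adjusted p 0.00085), and the KO change passed as well (0.000833) with no fold given.

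**Figure D2:**
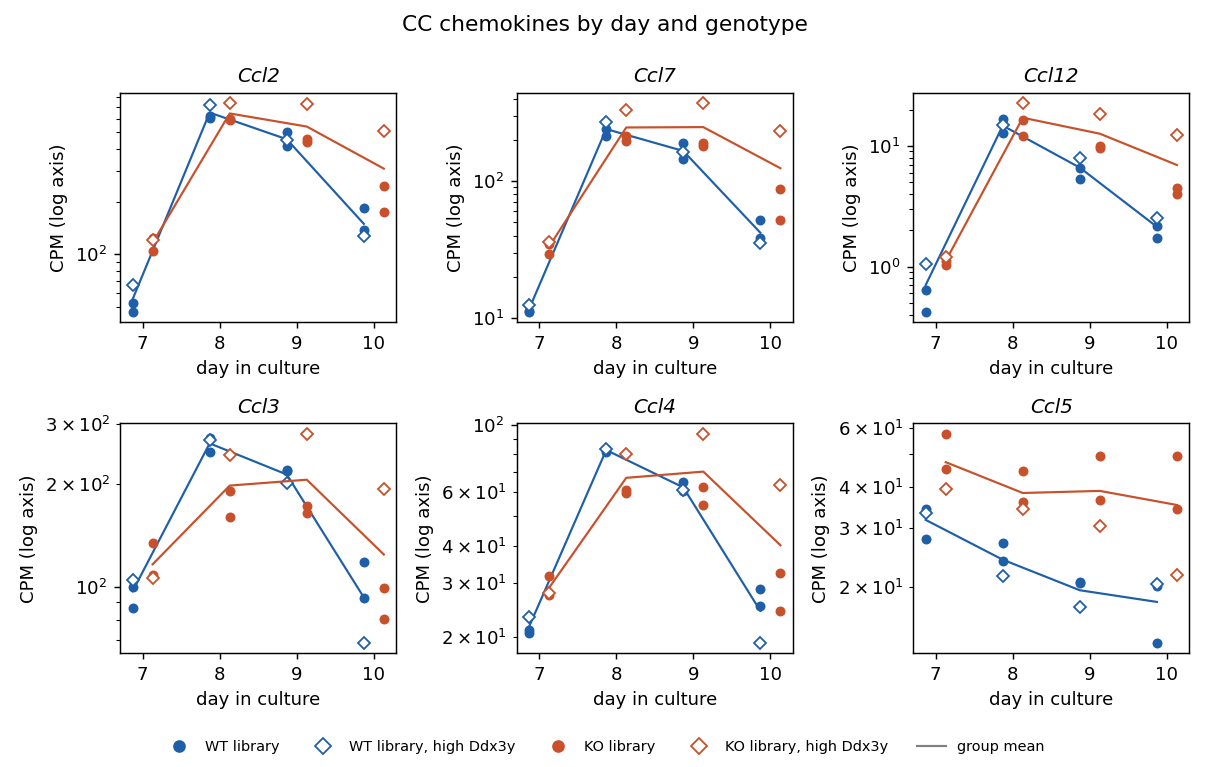
CPM (log axis) of 6 CC chemokines by day in culture; points are libraries, open diamonds the library of each group with high Ddx3y, lines the group means, blue WT and orange KO. Ccl2, Ccl7 and Ccl12 climb from day 7 to day 8, and for Ccl5 every KO point lies above every WT point of the same day.

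Ligands of Ccr1 and Ccr3 and further inflammatory CC ligands held the most abundant transcripts of the set. Ccl6 measured 3972, 3313 and 3225 CPM in WT on day 7, 10617, 9779 and 10170 on day 8 and 8147, 10212 and 9180 on day 10. KO libraries had 4258, 3700 and 3961 CPM of Ccl6 on day 7, 8933, 6788 and 10098 on day 8 and 5692, 10877 and 7148 on day 10. It rose 2.91-fold in WT and 2.17-fold in KO to day 8 (edgeR adjusted p 3.88e-06 and 0.000137). Unlike Ccl2, Ccl7 and Ccl12, Ccl6 stayed near that level, 2.62-fold and 1.99-fold above day 7 on day 10. Ccl9, a Ccr1 ligand and a near neighbour of Ccl6, stood at 748, 651 and 649 CPM in WT on day 7, 1932, 1969 and 1938 on day 8 and 973, 1203 and 1123 on day 10. Its rise to day 8 was 2.85-fold in WT and 2.09-fold in KO (edgeR adjusted p 1.11e-05 and 0.000428). On day 10 it was 1.61-fold above day 7 in WT (edgeR adjusted p 0.0144), a call lost without mouse 65 (0.141) or 66 (0.13), and 1.28-fold above in KO (0.191).

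Ccl3 and Ccl4, inflammatory CC ligands that lie side by side, peaked on day 8 in WT and on day 9 by the mean in KO, where the library with high Ddx3y set the day 9 peak. Ccl3 measured 104, 86.8 and 99.9 CPM in WT on day 7, 269, 248 and 273 on day 8 and 68.5, 118 and 92.7 on day 10. Its KO libraries gave 106, 135 and 108 CPM on day 7, 160.2, 191 and 243 on day 8, 281, 173 and 165 on day 9 and 98.9, 193 and 80.7 on day 10. Levels on days 7 and 10 overlapped in both genotypes, so the net change was small, with log2 values of -0.06 ± 0.26 in WT and 0.09 ± 0.26 in KO. The rise to day 8 was 2.71-fold in WT (edgeR adjusted p 0.000153) and 1.7-fold in KO (0.0207), the latter lost without the KO number 68 (0.136). Ccl4 rose from 23.2, 21 and 20.6 CPM to 83.3, 83.2 and 81.7 in WT, which is 3.83-fold (edgeR adjusted p 3.95e-06), and in KO from 27.9, 31.7 and 27.4 to 59.7, 61.2 and 80.0, which is 2.31-fold (0.000549). Both fell from day 9 to day 10 in WT, Ccl3 by 2.29-fold (edgeR adjusted p 0.0154) and Ccl4 by 2.56-fold (0.00569).

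Ccl5, which attracts T cells and monocytes through receptors that include Ccr1 and Ccr3, had no surge. WT libraries measured 33.3, 27.9 and 34.1 CPM of Ccl5 on day 7, 21.5, 23.8 and 27 on day 8, 17.4, 20.5 and 20.7 on day 9 and 20.3, 13.6 and 20.1 on day 10. In the KO libraries it read 39.4, 45.1 and 57.6 CPM on day 7, 35.9, 44.7 and 34.2 on day 8, 30.4, 49.4 and 36.5 on day 9 and 49.5, 21.8 and 34.3 on day 10. It was highest on day 7 by the mean in both genotypes, and day 10 lay below day 7 without overlap in WT and with overlap in KO. From day 7 to day 10 it fell 1.76-fold in WT (edgeR adjusted p 0.00952) and was 1.34-fold lower in KO (0.152). The WT call was lost without mouse 63, 65 or 66 (edgeR adjusted p 0.0505, 0.0798 and 0.0607) and on log2(TPM + 1) with limma (0.101).

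Ccl17, a ligand of Ccr4 that dendritic cells use to draw T cells, started low and had its highest mean on day 10 in both genotypes. It measured 1.65, 1.59 and 1.45 CPM in WT on day 7, 65.5, 56.1 and 73.3 on day 8, 116, 109 and 116 on day 9 and 114, 114 and 157 on day 10. KO values of Ccl17 were 2.91, 7.76 and 3.09 CPM on day 7, 84.6, 135 and 37.2 on day 8, 78.9, 202 and 132 on day 9 and 177, 109 and 132 on day 10. No library of a later day came near the day 7 level in either genotype, and no other reported member had its highest mean on day 10, although Ccr6, below the level for reporting, did. Its net rise was 81.7-fold in WT (log2 6.35 ± 0.50, edgeR adjusted p 3.03e-08) and 30.5-fold in KO (4.93 ± 0.44, 1.32e-07), the latter being log2 5.67 without number 67. That fit keeps the KO library with high Ddx3y on day 7 and drops that of day 10. Ccr4 itself, outside the list, rose as well, from a mean of 0.0428 to 1.33 CPM in WT (edgeR adjusted p 4.26e-05). Its day 7 level is at the limit of counting, so no fold is given. Ccl22, the other ligand of Ccr4, rose from 63.1 ± 7.88 (SD, n = 3) to 263 ± 75.1 CPM.

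The remaining CC ligands were scarce. Ccl24, an eosinophil attractant, had 4, 0 and 0 counts in WT on day 7 and 16, 14 and 5 on day 8, a change that passed in WT (edgeR adjusted p 0.0161) and not without mouse 65 (0.142). In KO it held 2 to 14 counts on those days. Ccl25, a ligand of Ccr9 in gut and thymus, ranged from 3.49 to 6.47 CPM over all libraries and passed in no comparison. It overlaps Elavl1 on the opposite strand, whose counts were 1470% of its own, so its counts are uncertain where the counting setting for strand is not given.

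The ligands of Cxcr2, which attract neutrophils, were led in this list by Ppbp and Cxcl2. Cxcl1, Cxcl2 and Ppbp had their lowest means on day 10 in both genotypes, and Cxcl3 did in WT. Their genes lie on chromosome 5 with 8 of the 32 members, while 10 lie on chromosome 11 and 7 on chromosome 9, and reads may be shared among such related copies. Promoter sequences from RefSeq (GRCm38.p6) are shown for Cxcl1, Cxcl2 and Cxcl3, neighbouring genes that each fell from day 7 to day 10 in WT, and for Cxcl10, the interferon-inducible member described after them. Each line gives the 250 bases before the annotated start, 5′ to 3′ on the gene's strand, with matches to the kappa B motif (GGG and TTCC separated by any 3 bases) on either strand in capitals, overlapping matches run together.
Cxcl1, chr5:90890995-90891244, forward strand: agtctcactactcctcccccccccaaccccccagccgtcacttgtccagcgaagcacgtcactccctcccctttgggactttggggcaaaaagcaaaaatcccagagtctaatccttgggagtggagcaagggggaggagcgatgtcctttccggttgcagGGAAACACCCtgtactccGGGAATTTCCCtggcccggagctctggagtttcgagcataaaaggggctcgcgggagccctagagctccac
Cxcl2, chr5:90903649-90903898, forward strand: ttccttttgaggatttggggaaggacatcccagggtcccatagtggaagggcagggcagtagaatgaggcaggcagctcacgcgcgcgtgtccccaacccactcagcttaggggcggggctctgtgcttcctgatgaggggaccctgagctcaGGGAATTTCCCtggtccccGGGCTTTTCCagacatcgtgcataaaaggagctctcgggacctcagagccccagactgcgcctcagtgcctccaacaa
Cxcl3, chr5:90785851-90786100, forward strand: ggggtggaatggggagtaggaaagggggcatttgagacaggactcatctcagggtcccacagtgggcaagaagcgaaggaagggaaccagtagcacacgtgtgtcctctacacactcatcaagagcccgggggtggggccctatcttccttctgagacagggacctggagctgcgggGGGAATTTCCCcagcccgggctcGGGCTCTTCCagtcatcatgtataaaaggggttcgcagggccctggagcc
Cxcl10, chr5:92348890-92349139, reverse strand: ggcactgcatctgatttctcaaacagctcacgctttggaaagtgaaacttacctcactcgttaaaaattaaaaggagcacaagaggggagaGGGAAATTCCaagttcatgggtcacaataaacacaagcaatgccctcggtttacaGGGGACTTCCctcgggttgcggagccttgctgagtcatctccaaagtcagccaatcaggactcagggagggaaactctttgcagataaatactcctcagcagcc

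Cxcl1, Cxcl2 and Cxcl3 carried the same run GGGAATTTCC, 71 to 62, 97 to 88 and 73 to 64 bases before the start. The kappa B motif was found in 6 of the 26 members with a promoter in the table, the 4 shown and Ccl9 and Ccr3, and in 4.65% of all 32851 promoters of that length. Among 7 other motifs searched on both strands, AP-1 (TGANTCA) was in 4 members and 6.75% of promoters and the TATA box (TATAAA) in 9 and 12.4%. GAS (TTCNNNGAA) was in 3 and 7.02%, ISRE (GAAA and GAAA separated by any 2 bases) in 2 and 2.98%, C/EBP (TTGCNNAA) in 2 and 9.56%, PU.1 (GAGGAAGT) in 1 and 2.44%, and CRE (TGACGTCA) in 0 and 1.55%. These are matches of letters and describe the sequence alone.

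Cxcl2 measured 51.2, 47.3 and 60.8 CPM in WT on day 7, 57.9, 70.4 and 83.7 on day 8, 33.3, 36.2 and 36 on day 9 and 9.18, 8.51 and 6.09 on day 10. Its KO libraries had 62.4, 61.5 and 52 CPM on day 7, 78.1, 86.4 and 129 on day 8, 92.2, 44.5 and 39.9 on day 9 and 18.6, 19.2 and 11.9 on day 10. Day 10 lay below every earlier library in both genotypes. The step to day 8 passed in KO (1.67-fold, edgeR adjusted p 0.0239) and was lost without number 68 (0.209). The fall from day 9 to day 10 was 4.44-fold in WT (log2 -2.15 ± 0.28, edgeR adjusted p 0.00219) and 3.56-fold in KO (-1.83 ± 0.27, 0.0147). Without mouse 63 the WT adjusted p was 0.0946, and the KO call was lost without number 64, 65 or 66 (0.138, 0.0693 and 0.0759) and with the groups compared alone in the fit (0.674). Between days 7 and 10 it fell 6.7-fold in WT and 3.54-fold in KO (edgeR adjusted p 6.64e-07 and 3.02e-05).

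Cxcl3 joined a surge on day 8 to that fall. It moved from 22.4, 18.4 and 19.2 CPM in WT on day 7 to 87, 99.7 and 87.7 on day 8, 34.6, 39.3 and 30.5 on day 9 and 9.65, 8.98 and 6.52 on day 10. KO libraries of Cxcl3 read 29.5, 13.4 and 17.5 CPM on day 7, 168, 111 and 266 on day 8, 119, 31.5 and 47.4 on day 9 and 13.7, 42.2 and 16.9 on day 10. All KO libraries exceeded all WT libraries on days 8 and 10, and the KO spread was wide. The rise to day 8 was 4.57-fold in WT and 8.98-fold in KO (edgeR adjusted p 0.000462 and 1.38e-05). On day 10 Cxcl3 was 2.39-fold below day 7 in WT (edgeR adjusted p 0.0388). That call was lost without any 1 of the WT mice (0.128 to 0.208) and with limma voom and the replicate block (0.0903). In KO Cxcl3 was 1.2-fold above day 7 (edgeR adjusted p 0.68). The libraries labelled 67 had 13.4 CPM on day 7 and 42.2 on day 10, and under each of the other KO numbers Cxcl3 was lower on day 10. Ddx3y was high in 64 on day 7 and in 67 on day 10, so these numbers cannot be read as single mice. The KO library with high Ddx3y measured 29.5 CPM on day 7 and 42.2 on day 10. The other KO libraries had 13.4 and 17.5 CPM on day 7 and 13.7 and 16.9 on day 10.

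Cxcl1, the scarcest of the 4 Cxcr2 ligands in this list, fell from 3.01, 4.07 and 3.51 CPM on day 7 to 0.285, 1.06 and 0.352 on day 10 in WT and from 4.99, 2.91 and 2.79 to 0.805, 1.39 and 1.03 in KO. The days did not overlap in either genotype, and the falls were 6.3-fold (edgeR adjusted p 0.00138) and 3.32-fold (0.0146), the KO call being lost without number 64 (0.0955) and the WT change going from log2 -2.66 to -3.33 without mouse 65 and to -1.66 on log2(TPM + 1). Ppbp, the platelet basic protein that yields a neutrophil attractant, measured 95.2, 98.1 and 92.9 CPM in WT on day 7, 101, 125 and 108 on day 8, 28.6, 42.9 and 33.7 on day 9 and 13.6, 10.9 and 13.3 on day 10. KO libraries gave 102, 67.7 and 102 CPM of Ppbp on day 7 and 9.66, 28.4 and 15.6 on day 10. It held its level to day 8 in WT and then dropped on each day, 3.17-fold to day 9 (edgeR adjusted p 0.0189) and 2.78-fold to day 10 (0.0469). The last step had an adjusted p of 0.0962 with limma voom and the replicate block and, with edgeR, of 0.0657 without number 68. Between days 7 and 10 it fell 7.56-fold in WT and 5.09-fold in KO (edgeR adjusted p 1.92e-05 and 0.000139). Without number 67 the KO change of Ppbp was log2 -3.03, against -2.35 with it. That fit keeps the KO library with high Ddx3y on day 7 and drops that of day 10.

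Pf4, platelet factor 4, is encoded next to Ppbp and was the fourth most abundant member by TPM. It measured 201, 224 and 185 CPM in WT on day 7, 313, 331 and 330.0 on day 8 and 95, 116 and 109 on day 10, so that day 10 lay below day 7 without overlap. The KO libraries spread more widely, with 349.7, 197 and 634 CPM on day 8 and 67.1, 330.3 and 115 on day 10. Pf4 passed in no comparison with all libraries, the net change being log2 -0.93 ± 0.48 in WT (edgeR adjusted p 0.135) and -0.35 ± 0.47 in KO (0.601). The KO net change of Pf4 passed without number 67 (log2 -1.58, edgeR adjusted p 0.000177) and without the KO libraries with high Ddx3y (-0.95, 0.0274). The WT net change passed in the same fits (edgeR adjusted p 0.00271 and 0.00828). Leaving out number 67 keeps the KO library with high Ddx3y on day 7 (302 CPM) and removes that of day 10 (330.3 CPM). The larger KO fall without number 67 was therefore built in. Of the 6 megakaryocyte and platelet markers, the members Pf4 and Ppbp ranged from 341 to 2663 and from 32.6 to 501.5 TPM. The 4 that are not members were lower, with Gp1bb at most 0.12 TPM, Gp5 at most 11.6, Gp9 at most 14.8 and Itga2b at most 27.4.

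**Figure D3:**
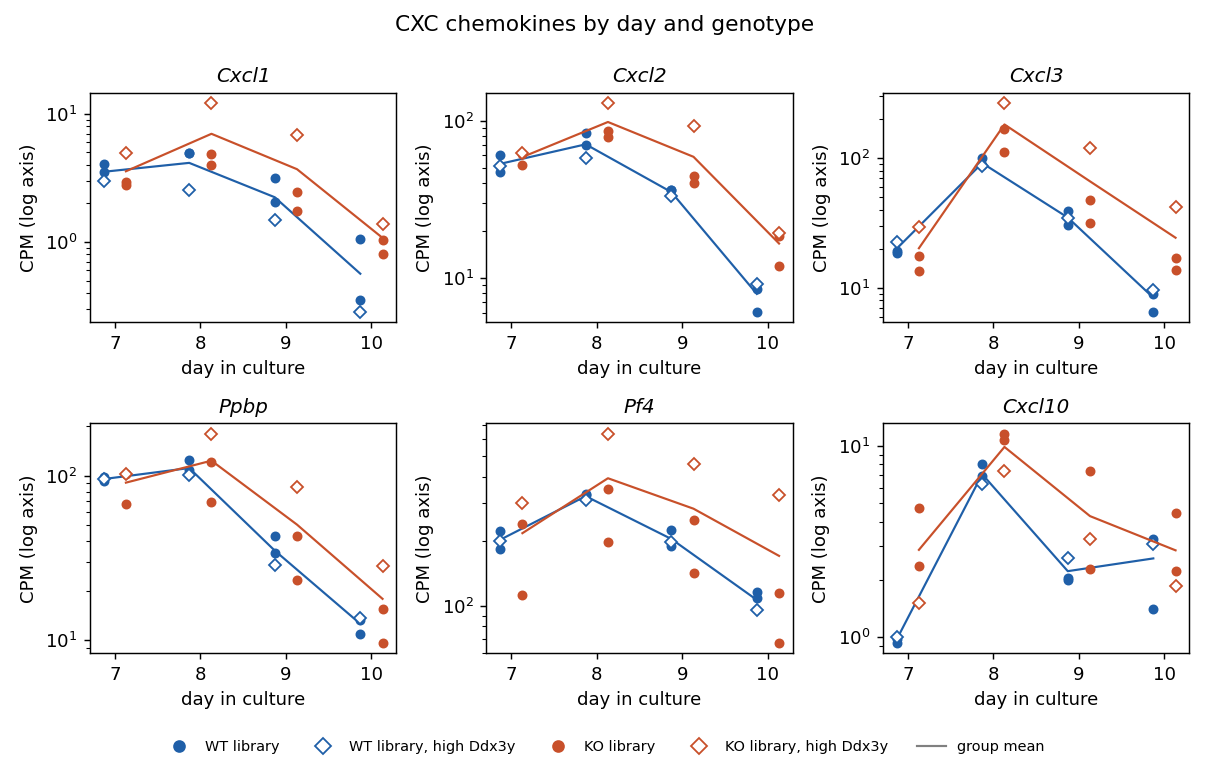
CPM (log axis) of 6 CXC chemokines by day in culture; points are libraries, open diamonds the library of each group with high Ddx3y, lines the group means, blue WT and orange KO. Cxcl1, Cxcl2, Cxcl3 and Ppbp are lowest on day 10 by the mean in WT, and the KO library with high Ddx3y lies above the other KO libraries in every panel but Cxcl10.

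Cxcl10, which attracts T cells through Cxcr3 and is induced by interferon, spiked on day 8. It measured 1, 0.936 and 0.984 CPM in WT on day 7, 6.29, 6.97 and 8.06 on day 8, 2.6, 2 and 2.04 on day 9 and 3.06, 1.41 and 3.28 on day 10. In KO it stood at 1.52, 4.71 and 2.36 CPM on day 7, 10.7, 11.5 and 7.39 on day 8, 3.25, 7.36 and 2.27 on day 9 and 4.47, 1.85 and 2.21 on day 10. Day 8 exceeded day 7 in every library of its genotype. The rise was 7.25-fold in WT and 3.46-fold in KO (edgeR adjusted p 5.37e-05 and 0.00171), and the WT fall to day 9 was 3.2-fold (0.0288). On day 10 Cxcl10 remained 2.65-fold above day 7 in WT (edgeR adjusted p 0.0259). That call was lost with limma voom and the replicate block (0.0986) and without any 1 of the WT mice (0.0508 to 0.195). In KO the fit gave equal levels on days 7 and 10 (log2 0.00 ± 0.43). By label, number 64 had 1.52 and then 4.47 CPM, number 67 had 4.71 and 1.85 and number 68 had 2.36 and 2.21. Ddx3y was high in 64 on day 7 and in 67 on day 10, so these numbers cannot be read as single mice. The KO library with high Ddx3y measured 1.52 CPM on day 7 and 1.85 on day 10. The other KO libraries had 2.36 and 4.71 CPM on day 7 and 2.21 and 4.47 on day 10.

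Cxcl14 and Cxcl16 fell after day 7. Cxcl14, a CXC ligand of resting tissues, dropped from 27.9, 33.9 and 37.1 CPM on day 7 to 2.66, 3.94 and 3.11 on day 8 in WT, and from 29.4, 6.94 and 23.4 to 1.99, 0.67 and 3 in KO. The days did not overlap, and the falls were 10.2-fold and 10.7-fold (edgeR adjusted p 7.05e-05 and 8.96e-05). Over the 15 alternatives the KO change of Cxcl14 ran from log2 -3.79 to -2.76. Cxcl16, a membrane-bound ligand of Cxcr6, read 144, 151 and 138 CPM in WT on day 7, 59.5, 70.1 and 63.9 on day 8, 51.9, 58.9 and 54 on day 9 and 72.9, 68.4 and 75.1 on day 10. KO libraries of Cxcl16 had 161, 159.9 and 179 CPM on day 7, 78.1, 81 and 83.2 on day 8, 51.8, 69.3 and 62 on day 9 and 75.4, 50.3 and 76.6 on day 10. It fell 2.23-fold in WT and 2.06-fold in KO to day 8 (edgeR adjusted p 2.87e-07 and 9.82e-07). Day 9 lay below day 8 without overlap in both genotypes, with log2 changes of -0.23 and -0.40 that did not pass (edgeR adjusted p 0.276 and 0.0738), although some alternatives passed, with the lowest for KO without number 67 (0.0069) and the lowest for WT without the KO libraries with high Ddx3y (0.0494). Zmynd15, which overlaps it on the opposite strand, had 4.65% of its counts.

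Ccr2, Cxcr2, Cxcr4, Cx3cr1 and Ccrl2 fell from day 7 to day 8 in both genotypes, and Ccr1 and Ccr3 did not pass over that step. Ccr1, which binds Ccl3, Ccl5, Ccl6 and Ccl9, moved little, with 544, 521 and 556 CPM in WT on day 7, 518, 531 and 509 on day 8, 459, 499.7 and 469 on day 9 and 382, 367 and 368 on day 10. Its KO libraries had 523, 502 and 477 CPM on day 7 and 394, 510.2 and 357 on day 10. The day 10 values lay below day 7 without overlap in WT, where Ccr1 fell 1.45-fold (log2 -0.54 ± 0.10, edgeR adjusted p 0.000339). In KO the days overlapped through number 67, with a log2 change of -0.25 ± 0.10 (edgeR adjusted p 0.0575) that passed with limma voom, with the replicate block (adjusted p 0.0381) and without it (0.0384).

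Ccr2, the monocyte receptor for Ccl2 and Ccl7, measured 475, 279 and 350.3 CPM in WT on day 7, 209, 174 and 184 on day 8 and 392, 220.0 and 278 on day 10. KO libraries gave 335, 522 and 365 CPM on day 7, 223, 325 and 93.8 on day 8 and 299, 121 and 247 on day 10. Its mean was lowest on day 8 in WT, when those of Ccl2, Ccl7 and Ccl12 were highest and that of Ccl8 was not. In KO it was lowest on day 9, at 197 CPM against 214 on day 8. On that day the KO mean of Ccl7 was highest and those of Ccl2 and Ccl12 were not. The fall to day 8 was 1.95-fold in WT (edgeR adjusted p 0.0341) and 1.9-fold in KO (0.0412). These calls were lost without mouse 63, 65 or 66 in WT (edgeR adjusted p 0.0904 to 0.189) and without any number but 67 in KO (0.0563 to 0.199). Both were also lost on log2(TPM + 1) with limma, and the KO call with the groups compared alone in the fit.

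Cxcr4, which binds Cxcl12 and holds cells in marrow, went from 148, 105 and 128 CPM on day 7 to 56, 67.6 and 57.9 on day 8 in WT and 96.2, 75.8 and 92.2 on day 10. In KO it dropped from 134, 159 and 162 CPM to 47.1, 53.8 and 52.2 on day 8 and stood at 77.7, 58.3 and 85.3 on day 10. Day 8 lay below day 7 without overlap, and the falls were 2.1-fold in WT and 2.97-fold in KO (edgeR adjusted p 2.98e-06 and 3.17e-08). Cx3cr1, the fractalkine receptor of monocytes and macrophages, fell from 5.82, 5.43 and 5.09 CPM on day 7 to 0.524, 0.881 and 1.04 on day 8 in WT, which is 6.71-fold (edgeR adjusted p 6.88e-05). KO libraries of Cx3cr1 fell from 4.39, 10.5 and 8.83 CPM to 0.882, 0.737 and 0.338, which is 11.9-fold (edgeR adjusted p 4.72e-06). On log2(TPM + 1), a scale that understates changes of low genes, these falls were log2 -1.44 and -1.94. By CPM neither gene returned to its day 7 level by day 10. The TPM of Cxcr4 overlapped in WT, with 157 to 216 on day 7 and 136 to 179 on day 10. Its WT change from day 7 to day 10 was log2 -0.24 at the least, and the call was lost in 1 of 15 alternatives.

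Cxcr2, the neutrophil receptor for Cxcl1, Cxcl2 and Cxcl3, differed widely among mice on day 7, with 14.5, 22.7 and 43 CPM in WT and 18.4, 41.4 and 39.3 in KO. On day 8 it read 7.83, 16.5 and 14.8 CPM in WT and 13.6, 18 and 12.5 in KO. These ranges overlapped in WT. The fall to day 8 was 2.05-fold in WT (edgeR adjusted p 0.0184, lost without mouse 66 at 0.241) and 2.24-fold in KO (0.00893, lost without number 68 at 0.114). From day 7 to day 10 it fell 2.18-fold in KO (edgeR adjusted p 0.0128, lost without number 67 at 0.121 or 68 at 0.063). Each of these calls of Cxcr2 was also lost on log2(TPM + 1) with limma. The 10 neutrophil markers, of which Cxcr2 is 1, summed to 5617 to 11420 TPM in WT on day 7 and 7955 to 10596 TPM on day 8, a sum made up mostly of S100a8 and S100a9. Within that list, the medians of Ly6g and Retnlg went from 26.8 to 9.17 and from 110 to 29.6 TPM in WT and from 24.5 to 6.94 and from 78.1 to 18.4 TPM in KO. The medians of the other 7 went both ways in each genotype. In WT those of S100a8, S100a9, Ltf, Elane and Ngp were higher on day 8, with Ltf at 223 and then 330 TPM. Those of Camp and Mpo were lower in WT, with Camp at 105 and then 99.5 TPM. In KO, of these 7, Ltf had a higher median on day 8 and the others a lower one. The part of neutrophils in the fall of Cxcr2 was not tested. Ccr3, the eotaxin receptor of eosinophils, ranged from 1.46 to 5.63 CPM and passed in no comparison. Ccr6, the receptor for Ccl20, held 1, 1 and 2 counts in WT on day 7 and 13, 9 and 14 on day 10. That rise passed (edgeR adjusted p 0.0311). The call of Ccr6 was lost in 4 of 15 alternatives, among them the fits without mouse 63, 65 or 66 (edgeR adjusted p 0.124 to 0.157). Its KO counts were 2, 15 and 3 on day 7 and 53, 10 and 31 on day 10.

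Ccrl2, an atypical receptor that holds chemerin at the cell surface and does not signal, had the lowest adjusted p of the members from day 7 to day 8. It measured 70.9, 59.4 and 67.7 CPM in WT on day 7, 15.2, 16.6 and 16.4 on day 8, 13.8, 12.8 and 13.6 on day 9 and 17.9, 18.1 and 18.5 on day 10. KO libraries of Ccrl2 had 66.7, 61.7 and 72.3 CPM on day 7, 14.1, 14.4 and 16.9 on day 8, 16.2, 13 and 11.3 on day 9 and 14.9, 16.4 and 15.2 on day 10. All day 7 libraries stood above all others. The fall to day 8 was 4.11-fold in WT (log2 -2.04 ± 0.11, edgeR adjusted p 3.49e-11) and 4.42-fold in KO (-2.14 ± 0.11, 1.94e-11), and the later WT rise from day 9 to day 10 was 1.35-fold (0.0303).

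**Figure D4:**
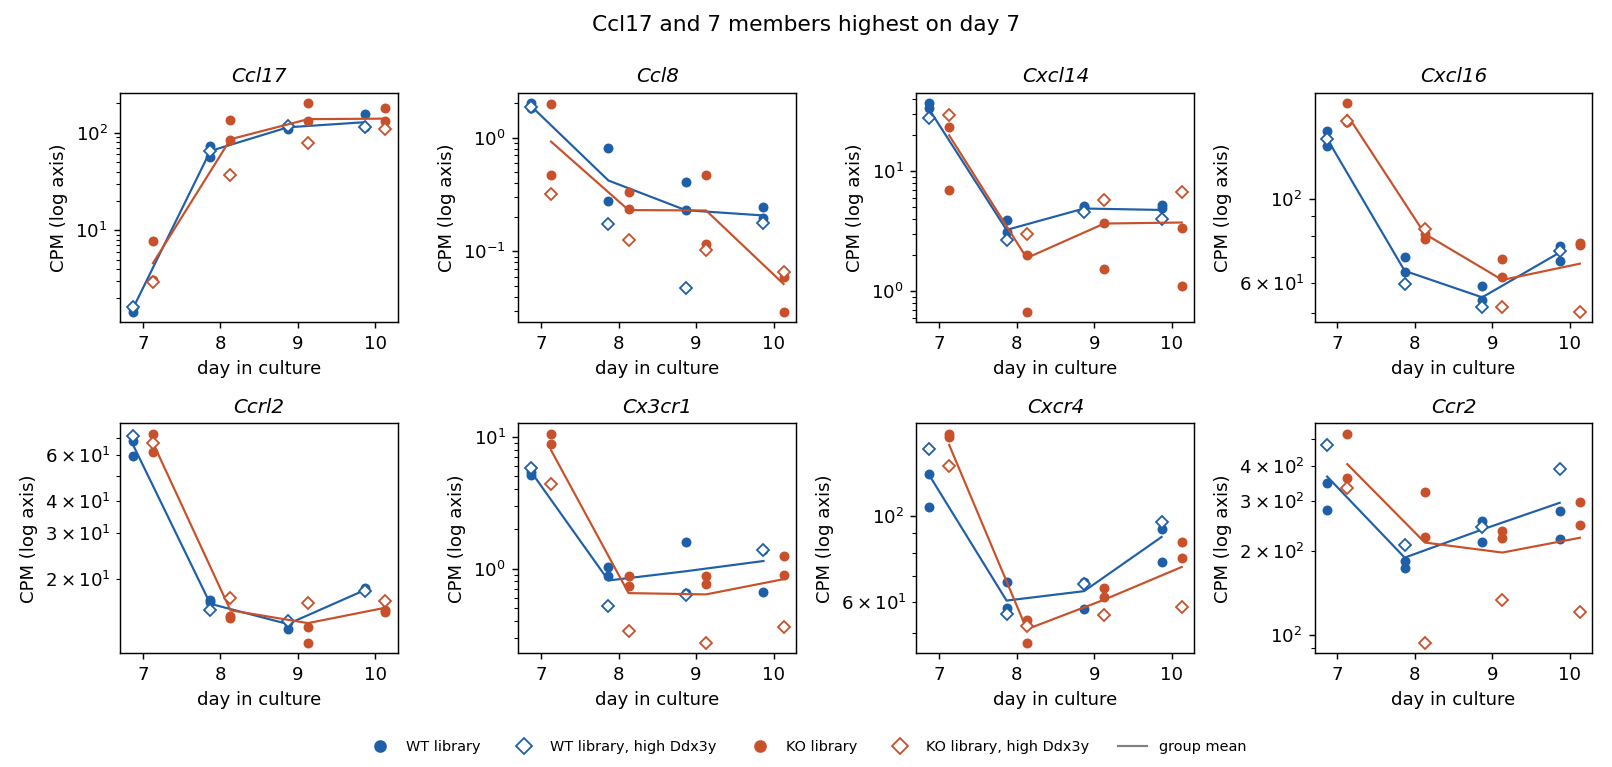
CPM (log axis) by day in culture of Ccl17 and of 7 members with their highest mean on day 7; points are libraries, open diamonds the library of each group with high Ddx3y, lines the group means, blue WT and orange KO. Ccl17 rises to a plateau of 109 to 157 CPM in WT on days 9 and 10, and Ccrl2, Cx3cr1 and Cxcl14 drop by day 8 and stay low.

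The peaks of WT and KO fell on the same day for 21 of the 26 reported members. In WT the highest mean was on day 8 for 15 members, on day 7 for 10 and on day 10 for Ccl17. In KO it was on day 8 for 12 members, day 7 for 9, day 9 for Ccl3, Ccl4, Ccl7 and Ccr3, and day 10 for Ccl17. Without the KO libraries with high Ddx3y, the mean of the others was highest on day 8 for Ccl3, Ccl4, Ccl7 and Ccr3 and on day 9 for Ccl17. For Ccl3 it was 175 CPM on day 8 and 169 on day 9, and for Ccl7 205 and 186 CPM. The members whose day differed were Ccl3, Ccl4, Ccl7, Ccr1 and Ccr3.

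No member differed between KO and WT at an adjusted p under 0.05 on any day with edgeR. The 28 tested members had 0 calls on each of days 7, 8, 9 and 10, where 1.45%, 0.00688%, 0.00688% and 0.0138% of all genes were called (on day 7, 0.832% higher and 0.619% lower in KO). Members under an unadjusted p of 0.05 numbered 6, 4, 5 and 8, which is 21.4%, 14.3%, 17.9% and 28.6% of the members, where 15.7%, 5.91%, 8.15% and 7.3% of all genes were. The DESeq2 Wald test called 4 on day 7 (Ccl2, Ccl7, Ccl17 and Cxcl10), 0 on day 8, Ccl5 on day 9 and 5 on day 10 (Ccl2, Ccl5, Ccl7, Ccl12 and Cxcl2), all higher in KO, and it called 3.6%, 0.117%, 0.674% and 0.296% of all genes. Signs leaned to KO, with 24, 16, 20 and 18 of the 28 members positive on the successive days, and a median log2 difference of 0.26, 0.04, 0.16 and 0.19 where that of all genes was -0.01, 0.00, 0.00 and 0.00. The 4 comparisons use different libraries of the same mouse numbers. Libraries did not overlap with KO higher for 9, 3, 4 and 4 members, where that held for 11.9%, 4.4%, 7.62% and 5.47% of all genes, and with KO lower for 0, 3, 0 and 2 members, against 14.2%, 4.99%, 6.47% and 4.97%.

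Ccl5 was higher in every KO library than in every WT library of the same day on all 4 days. Its ratio of KO to WT was 1.49, 1.59, 1.99 and 1.95 from day 7 through day 10, with log2 differences of 0.58 ± 0.23, 0.67 ± 0.23, 0.99 ± 0.23 and 0.97 ± 0.23. The edgeR adjusted p was 0.221, 0.663, 0.21 and 0.227, so the difference did not pass on any day. Leaving out the KO library with high Ddx3y, an alternative chosen after the data were seen, gave log2 differences of 0.70, 0.75, 1.15 and 1.22 and edgeR adjusted p of 0.033, 0.0468, 0.0296 and 0.0206. The WT library with high Ddx3y stayed in that fit, so KO and WT no longer matched in Ddx3y. On day 10 the KO library with high Ddx3y is number 67. With number 67 left out of all days, the day 10 difference was the same 1.22 (edgeR adjusted p 0.0085), from the same KO libraries. The library with high Ddx3y was the lowest KO library for Ccl5 on each of the 4 days. Leaving it out thus raised the difference by construction, and the p-values without it are not separate support.

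Ccl2 and Ccl7 came closest to the threshold on day 7, where no KO library overlapped a WT library. The day 7 difference of Ccl2 was 2.11-fold (log2 1.08 ± 0.27, edgeR adjusted p 0.0533), and it passed with limma voom, with the mouse number as a replicate block (adjusted p 0.042) and without it (0.0418). For Ccl7 it was 2.86-fold (log2 1.52 ± 0.40, edgeR adjusted p 0.0626). Both passed when number 67 was left out (edgeR adjusted p 0.0284 and 0.0235) or number 68 (0.0354 and 0.0295) and when the KO library with high Ddx3y was (0.00196 and 0.000805). On day 8 their differences were log2 -0.02 ± 0.27 and 0.04 ± 0.36, so the day 7 gap was not seen a day later. On day 10 they were 1.05 ± 0.27 and 1.57 ± 0.37 with overlapping libraries (edgeR adjusted p 0.285 and 0.225), and Ccl7 passed without number 68 (1.93, edgeR adjusted p 0.0298), while without number 67 its difference was 0.73 (0.191). The macrophage markers summed to 2810 to 3872 TPM in KO and 2518 to 2962 TPM in WT on day 7, and on day 10 to 2581 to 2885 and 2082 to 2331 TPM, and their part in these differences was not tested.

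Cxcl10 and Ccl17 were also higher in KO on day 7 without overlap. Cxcl10 differed 2.92-fold (log2 1.54 ± 0.48, edgeR adjusted p 0.111) and Ccl17 2.91-fold (1.54 ± 0.56, 0.179). For both the KO library labelled 67 was the highest, the difference of Ccl17 was 0.95 without it (edgeR adjusted p 0.431) and 1.80 without the KO libraries with high Ddx3y (0.017), and Cxcl10 passed without number 64 (edgeR adjusted p 0.0386). Number 64, with high Ddx3y on day 7, was the lowest KO library for both, so leaving it out raised these differences by construction. Cxcl2 on days 9 and 10, Cxcl3 on days 8 and 10 and Ccl12 on days 9 and 10 were higher in KO without overlap. Their day 10 differences were log2 1.06 ± 0.28, 1.53 ± 0.46 and 1.70 ± 0.37, with edgeR adjusted p of 0.285, 0.362 and 0.147. Without number 67 those of Cxcl3 and Ccl12 were 0.88 and 1.00. Cxcl16 on days 7 and 8 and Ccl9 on day 7 were likewise higher in KO without overlap. So was Ccr6 on day 9, at 11 to 27 counts in KO and 2 to 7 in WT. Ccl8 and Ccrl2 were lower in KO on day 10 without overlap, Ccrl2 by a log2 difference of -0.23 ± 0.10 (edgeR adjusted p 0.639). Cxcr4 was lower in KO on day 8 without overlap, at 47.1 to 53.8 CPM against 56 to 67.6 in WT. Ccl3 and Ccl4 stood above WT in every KO library on day 7 and below WT in every KO library on day 8.

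**Figure D5:**
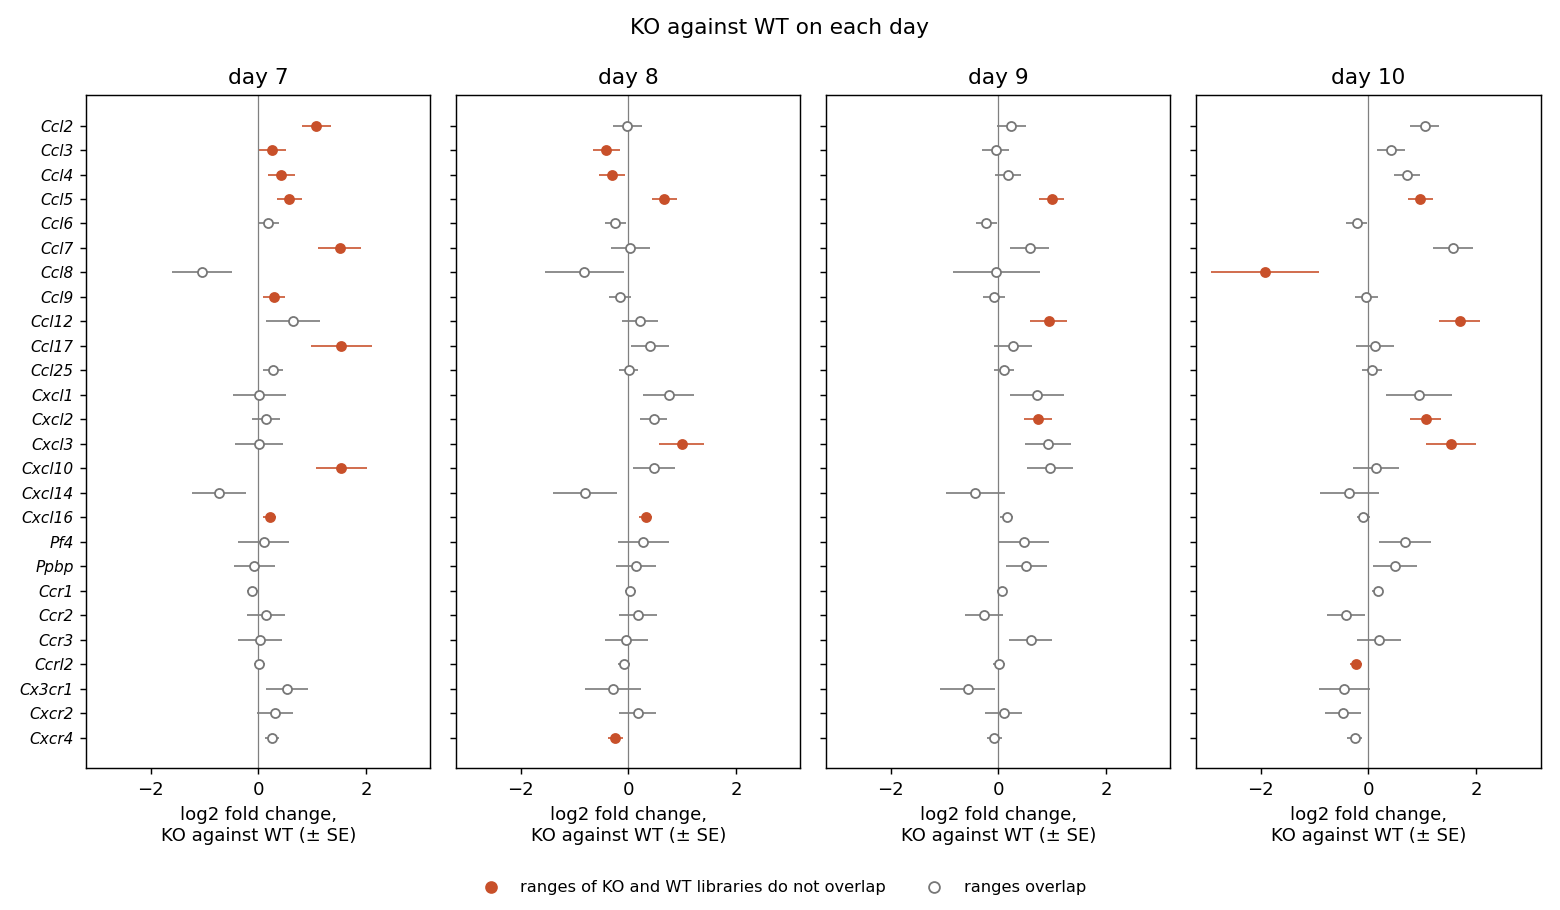
Log2 fold change of KO against WT on each day for the 26 reported members; bars are standard errors, and filled points mark members whose KO and WT libraries do not overlap. Ccl5 is filled on the positive side on all 4 days, and the panels hold 9, 6, 3 and 6 filled points from left to right.

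KO libraries varied more among themselves, and not in this set alone. Over the genes that passed the filter, pairs within a group differed by a chi-square per degree of freedom of 13.5 to 132 in KO and 7.26 to 25.4 in WT. The SD of log2(CPM + 0.5) was larger in KO than in WT for 16 of the 26 reported members on day 7 and for 22 on each of days 8, 9 and 10. Its medians were 0.232 against 0.143 on day 7 and 0.495 against 0.273 on day 10. The share of all genes with a larger SD in KO was not counted. The KO library with high Ddx3y was the highest of its group on all 4 days for 11 members, which were Ccl6, Ccl7, Ccl9, Ccl12, Cxcl1, Cxcl2, Cxcl3, Cxcl14, Pf4, Ppbp and Ccr1. It was the lowest on all 4 days for Ccl5, Ccl17, Ccr2 and Cx3cr1. In WT the library with high Ddx3y was the highest on all 4 days for 0 members and the lowest for Cxcl1, Cxcl14 and Ccr3. The KO library with high Ddx3y also had the lowest summed dendritic cell, monocyte and neutrophil markers of its group on all 4 days. On day 10 these came to 5821 TPM against 9066 and 12804 for the 7 dendritic cell markers, 2434 against 3968 and 4168 for the 6 monocyte markers and 11179 against 20093 and 21455 for the 10 neutrophil markers. Its macrophage sum was the highest of the group on days 8, 9 and 10, with 2885 TPM against 2581 and 2768 on day 10, and so was its megakaryocyte and platelet sum, which includes Pf4 and Ppbp, on all 4 days. The part of such cells in the spread was not tested. Pf4 shows the size of this spread, with 458 CPM in that KO library on day 9 beside 142 and 250.4 in the others. Sex and other differences between the mice cannot be told apart here.

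The net change from day 7 to day 10 did not differ between genotypes for any member at an adjusted p under 0.05. The test of that difference (KO change minus WT change, edgeR) gave 0 calls among the 28 members, where 0.0619% of all genes were called, with 5 members under an unadjusted p of 0.05 (17.9%, where 6.31% of all genes were) and 0 calls by the DESeq2 Wald test, which called 0.268% of all genes. Those 5 were Cxcr4 with a log2 difference of -0.51 ± 0.19, Cxcl2 with 0.92 ± 0.38, Cxcl3 with 1.52 ± 0.64, Cxcl10 with -1.41 ± 0.64 and Ccl17 with -1.42 ± 0.67, and their edgeR adjusted p ran from 0.629 to 0.79. Without number 67 the differences of Cxcl3, Cxcl10 and Ccl17 were 0.62, -0.64 and -0.68, and without number 64 those of Cxcl3 and Cxcl10 were 2.19 and -2.21. The fit without 67 keeps the KO library with high Ddx3y on day 7 and drops that of day 10, and the fit without 64 does the reverse. The changes of WT and KO had the same sign for 27 of 28 members from day 7 to day 8 and for 24 of 28 from day 7 to day 10, where 84.9% and 82.3% of all genes did so.

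Other chemokines and receptors, a list of 28 genes, were mostly silent, with 15 not reaching the filter and 13 tested. None of the 13 passed between KO and WT on any day with edgeR. From day 7 to day 10 in WT 3 rose and 2 fell, and in KO 4 rose and 3 fell, where 37% and 36.8% of all genes passed. Besides the rises of Ccr4 and Ccl22, the 2 falls in WT were those of Cxcr1, a neutrophil receptor, from 0.705 ± 0.482 to 0.121 ± 0.0365 CPM (SD, n = 3, log2 -2.50, edgeR adjusted p 0.00839), and Cxcl5, a Cxcr2 ligand, from 0.459 ± 0.0484 to 0.151 ± 0.12 CPM (log2 -1.61, edgeR adjusted p 0.0265). A list of 28 genes that act below the receptors was tested in full and also had 0 calls between KO and WT on each day. From day 7 to day 10 in WT 7 of them rose and 8 fell, and in KO 9 rose and 8 fell, beside the same 37% and 36.8% of all genes. Rgs1 and Rgs16, which shorten G protein signals, fell most, from 426 ± 34.1 to 42.2 ± 6.12 CPM and from 5.29 ± 0.463 to 0.593 ± 0.254 CPM (log2 -3.34 and -3.16, edgeR adjusted p 3.03e-08 and 1.05e-05). Rgs14, another regulator of G protein signals, and Grk3, a kinase that desensitises receptors, rose most, with log2 changes of 1.43 and 1.37 (edgeR adjusted p 8.94e-07 and 0.00213).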

How the data were processed

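Poly(A) RNA of BMDCs was sequenced in 24 libraries from 6 mice, 3 per genotype and day, grouped by the genotype and day labels. The authors deposited gene-level raw counts and, separately, TPM, and STAR 2.6.1, FastQC 0.11.9, DESeq2 1.22.2 and the build mm10 are named in the submitters' processing notes, with no counter or strand setting given in the sources used here. Library kits of 2 kinds are named in the labels' protocols without saying which library used which, so a kit effect was not tested. Of 55487 gene identifiers, 55094 matched GENCODE M21 (GRCm38) with the same version.

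In R 4.3.3, edgeR 4.0.16 took the counts as deposited: 14535 of 28655 genes with a count passed filterByExpr, libraries were scaled by TMM, and all 24 were fitted together by quasi-likelihood, each group having its own mean, with 16 residual degrees of freedom and Benjamini-Hochberg adjustment over all genes tested. The threshold was an adjusted p of 0.05. A standard error is the log2 change divided by the square root of F. P-values measure the spread between these libraries. Levels of a gene between libraries are CPM, and levels between genes are the deposited TPM. The scripts were tested on simulated data. Counting precision is high at these totals for abundant members, and counts of PCR-amplified reads without molecular identifiers cover counting error only. Libraries of 1 group differed by a chi-square of 7.26 to 132 per degree of freedom, so none was counted as a repeat.

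Same-numbered libraries come from the same mouse by the labels. Deviations from group means over 11106 genes correlated at a mean r of 0.291 for same-numbered WT libraries and 0.025 for KO, while KO libraries with high Ddx3y (above 10 CPM) correlated at 0.602.

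Genes were named by their listed role, and any member past the threshold is given with its values. For the 2 further lists, values are given for genes past the threshold between KO and WT or among the 2 largest changes per direction from day 7 to day 10 in WT. Members and lists were chosen with earlier results of these data known. The alternatives were DESeq2 1.42.0 (size factors and Wald test), no filter, a fit on the groups compared, limma-trend 3.58.1 on log2(TPM + 1), limma voom with the mouse number as a block and leaving out each mouse. A further 3 were chosen after the data were seen, of which 2 concern Ddx3y and 1 is limma voom without the mouse number. The fit without the KO libraries with high Ddx3y keeps the WT libraries with high Ddx3y.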

Additional observations from a re-analysis of the deposited data

Results flagged for a closer look

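Ccl3 and Ccl4 stood out because their difference between KO and WT turned from day 7 to day 8: every KO library was above every WT library on day 7 and below every one on day 8. The difference of differences (day 8 minus day 7) was log2 -0.67 ± 0.36 (SE) for Ccl3 and -0.73 ± 0.35 for Ccl4, with an edgeR adjusted p of 0.999 for both, so neither passed. On day 7 Ccl3 was 1.2-fold and Ccl4 1.34-fold higher in KO, and on day 8 Ccl3 was 1.33-fold and Ccl4 1.24-fold lower. These genes are neighbours on chromosome 11 and are not independent observations.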

How the results depend on the processing

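No called change of a member turned its direction under any alternative. Calls between KO and WT were 0 with DESeq2 size factors on every day. On day 7 the count was 4 with the DESeq2 Wald test, 4 without a filter, 3 with the groups compared alone, 2 on log2(TPM + 1), 1 with limma voom and the replicate block, 1 with limma voom without the mouse number, 2 with high Ddx3y as a covariate and 5 without the KO libraries with high Ddx3y. On day 8 it was 1 without those libraries. On day 9 it was 1 with the Wald test, 1 without a filter and 1 without those libraries. On day 10 it was 5 with the Wald test, 6 without a filter, 1 with the covariate and 1 without those libraries. Leaving out each mouse gave 0 to 2 on day 7 and 0 to 1 on day 10. The share of all genes called on day 7 was 1.45% as reported, 3.6% with the Wald test, 1.19% without a filter, 2.13% with the groups alone, 0.826% on log2(TPM + 1), 0.998% and 0.991% with limma voom with and without the mouse number, 1.65% with the covariate, 5.76% without the high Ddx3y libraries and 0.0757% to 2.42% with each mouse left out. For day 8 the share was 1.94% without the high Ddx3y libraries. For day 9 it was 0.674% with the Wald test, 0.314% without a filter and 0.612% without those libraries. For day 10 it was 0.296%, 0.15% and 0.0206% under the same settings, 0.0275% with the covariate and 0.00688% to 0.55% in the fits that omit 1 mouse.

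From day 8 to day 9 WT counts were 5 with the Wald test, 5 without a filter, 14 with the groups compared alone, 5 with the covariate, 10 without the KO libraries with high Ddx3y and 0 to 7 with each mouse left out, where 9.12%, 2.99%, 14.6%, 6.69%, 12.2% and 0.117% to 11.4% of all genes were called, against 5.4% as reported. KO counts for those days were 4 with the Wald test, 5 without a filter, 1 on log2(TPM + 1), 3 with limma voom and the replicate block, 3 with limma voom without the mouse number, 3 with the covariate, 3 without the high Ddx3y libraries and 0 to 5 with each mouse left out, where 6.18%, 2.08%, 1.59%, 2.12%, 2.08%, 3.89%, 7.56% and 0.144% to 3.8% of all genes were called, against 2.33%. From day 9 to day 10 WT counts were 16 with the groups compared alone, 15 without the KO libraries with high Ddx3y and 0 to 15 with each mouse left out, where 5.33%, 7.92% and 0% to 7.3% of all genes were called, against 3.6%. KO counts there were 3 with the Wald test, 5 without a filter, 0 with the groups compared alone, 8 without the high Ddx3y libraries and 0 to 16 with each mouse left out, 16 being without number 67. The share of all genes there was 0.0963% as reported, 1.42% with the Wald test, 0.171% without a filter, 0% with the groups alone, 0.777% without the high Ddx3y libraries and 0% to 14.4% with each mouse left out. The fit without number 67 keeps the KO library with high Ddx3y on day 9 and drops that of day 10. The cause of these shifts was not tested.

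The total of members called from day 7 to day 8 or day 10, and the interaction's 0, moved by less than 1.5 times, but the upward KO calls to day 10 went from 5 to 8 on log2(TPM + 1). The shares of all genes moved more: to day 8 they ran from 19.9% to 52.1% in WT and 19.4% to 46% in KO, to day 10 from 16.4% to 47.3% and 16.3% to 51.6%, and in the interaction from 0% to 0.268%, lowest without a filter for the day changes. Leaving out a mouse of the genotype compared gave as little as 22.5% in WT (66) and 22% in KO (64) to day 10. The replicate block had a consensus correlation of 0.00464, and limma voom gave nearly the same counts with and without it. The KO numbers it rests on go against Ddx3y. On log2(TPM + 1) with limma the median of all genes moved by 0.17 to 0.25 (log2) for the changes from day 7 to days 8 and 10. That alternative changes the scaling, the added 1 and the test together. Depth limits Ccl8, Ccl24 and Ccr6, which had as few as 1, 0 and 0 counts in a library.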
